A study of Mus musculus with 18 samples.

Results

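Neutrophils sorted from inflamed lungs of mice without a working phagocyte NADPH oxidase were compared with those of wild-type (WT) mice, in the fraction that carried no CD101 on its surface. The comparison used 6 of the 18 RNA sequencing libraries of the series, 3 of each genotype, chosen by their labels for genotype, treatment and surface CD101. The genotype labelled CGD/CYBB KO, here CGD, is a mouse model of chronic granulomatous disease. All 6 libraries came from female C57BL/6 mice that were 13 weeks old and had received 20 µg of sterile zymosan, a yeast cell wall preparation, through the nose 24 h earlier. Cells were live CD45+ CD11b+ Ly6G+ CD101neg cells of collagenase-digested whole lung, with 50000 to 200000 sorted for a sample. The labels call CD101neg cells immature, since neutrophils gain CD101 as they mature. The labels do not say whether the replicates of a group came from separate mice. The p-values therefore speak only of the spread among samples within groups, and that spread may be technical. It was estimated over all groups of the 18 libraries together, not from these 6 alone. The same genotypes were also sorted as CD101pos cells after zymosan (3 libraries each), which serve below to test whether a genotype difference was particular to the CD101neg fraction.

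The phagocyte oxidase is a membrane enzyme that moves electrons from NADPH to oxygen and so makes superoxide. Its membrane part consists of gp91phox, encoded by Cybb, and p22phox, and soluble p47phox, p40phox, Rac and other proteins join it when a phagocyte meets a microbe. Mice and people without it cannot kill some fungi and bacteria and mount prolonged inflammation even to sterile fungal cell wall. Young neutrophils leave the bone marrow in larger numbers during inflammation and still carry RNA made during granule formation.

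Levels are CPM, a gene's counts relative to a common library total, scaled between libraries with TMM factors, and are given in the order replicate 1, 2 and 3, which carries no rank. Differences are log2 fold changes, CGD against WT, with their standard error (SE), and a gene rose or fell where its adjusted p was under 0.05. The 6 libraries held 51.9 to 64.0 M counts. Reads of mitochondrially encoded genes made up 0.316% to 0.359% of CGD and 0.492% to 0.581% of WT libraries. The 10 genes with most counts took 25.0% to 26.9% of CGD and 19.9% to 21.1% of WT counts. The TMM factors were 0.702 to 0.809 in CGD and 0.933 to 1.20 in WT libraries. With scaling by library size only, the median of all genes shifted from -0.08 to -0.57. Where they moved, counts of genes in a list are also given with that scaling ("library size only") and from a fit of the 6 libraries alone ("only the libraries compared"). In bulk samples, fewer cells of a type and less RNA per cell cannot be told apart.

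Marker genes were compared between the genotypes within the CD101neg fraction, which does not check the CD101neg label itself. Cd101 (ENSMUSG00000086564), which encodes the protein used in the sort, was present at 54.1, 82.001 and 47.3 CPM in CGD and 159, 185 and 156 CPM in WT libraries. All CGD libraries lay under all WT libraries (log2 fold change -1.45 ± 0.23, adjusted p = 0.000484). Of 11 neutrophil markers Cd101 alone passed the threshold, and their summed level ran from 52435 to 116470 CPM in CGD and from 19849 to 82340 CPM in WT libraries. S100a8, a calcium-binding protein that fills the neutrophil cytosol, was at 48876, 25202 and 22261 CPM in CGD and 7416, 35583 and 13956 CPM in WT libraries, and Ly6g, which encodes the sort marker Ly6G, at 229.8, 107 and 59.7 CPM in CGD and 6.78, 99.9 and 24.7 CPM in WT libraries. WT replicates 1 and 3 thus stood low for both, while WT replicate 2 lay within or near the CGD range. Of the primary granule genes, whose summed level was 3744 to 5107 CPM, the elastase Elane was at most 0.146 CPM and the myeloperoxidase Mpo at most 0.142 CPM in any of the 6 libraries.

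Cybb (ENSMUSG00000015340) was at 49.8, 40.5 and 44.97 CPM in CGD and 254, 261 and 274 CPM in WT libraries. All 3 CGD libraries lay below all 3 WT libraries (log2 fold change -2.55 ± 0.19, adjusted p = 8.15e-07), as the genotype labels give. Of the 16575 genes tested, 12.9% passed the threshold, 6.67% higher and 6.24% lower in CGD, and every list below is read against those shares. Among 10 genes of the oxidase, 2 rose and 2 fell, with a median of 0.27 (-0.20 with scaling by library size only). Those that rose encode its soluble regulators. Ncf1, for p47phox, was at 704, 763 and 976 CPM in CGD and 507, 282 and 381 CPM in WT libraries (log2 fold change 1.06 ± 0.27, adjusted p = 0.0146), and Ncf4, for p40phox, at 705, 788 and 653 CPM in CGD and 379.5, 481 and 380.5 CPM in WT libraries (log2 fold change 0.79 ± 0.20, adjusted p = 0.015). Hvcn1, the proton channel that offsets the charge moved by the oxidase, fell (log2 fold change -1.27 ± 0.34, adjusted p = 0.0196), with WT replicate 2 close to the CGD libraries (13.3, 19.3 and 16.9 CPM in CGD and 45.7, 20.1 and 53.7 CPM in WT libraries). Members that did not pass included Cyba (p22phox, 0.27 ± 0.23), Rac2 (0.36 ± 0.33), Rac1 (0.26 ± 0.20), Rap1a (0.19 ± 0.14) and the chaperone Cybc1 (-0.14 ± 0.28). Ncf1 lost its call without CGD replicate 3 (0.0596) or WT replicate 2 (0.0531) (adjusted p in brackets), Ncf4 without CGD replicate 2 (0.0666), WT replicate 1 (0.0559) or WT replicate 3 (0.0592), and Hvcn1 without CGD replicate 1 (0.0724), CGD replicate 3 (0.0525), WT replicate 1 (0.0639) or WT replicate 3 (0.0911). For oxidase genes the counts were 0 higher and 2 lower with library size only, and 1 higher and 1 lower with only the libraries compared.

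In all, 1105 genes rose and 1034 fell. The genes that rose were mostly abundant and changed moderately: 832 of them reached 10 CPM in CGD on average, their median change was 1.16, and 189 passed 4-fold. Those that fell were scarcer and changed more, with 346 reaching 10 CPM in WT, a median change of -1.41 and 260 past 4-fold. All 3 CGD libraries lay above all 3 WT libraries for 1077 of the genes that rose and below them for 974 of those that fell, where 14.7% and 15.3% of all genes tested had libraries that did not overlap in these directions. Without CGD replicate 2 the counts were 708 and 469, and without WT replicate 1 they were 717 and 669. With scaling by library size only, 413 genes were higher and 3572 lower, so that 10.4% of calls were higher in place of 51.7%.

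**Figure D1:**
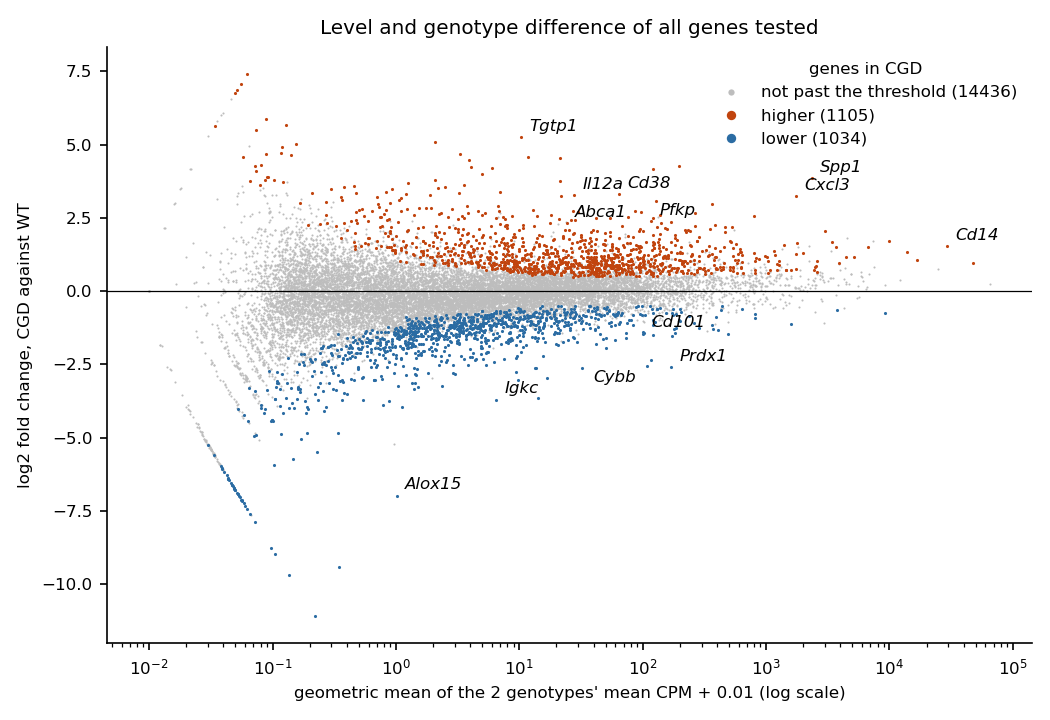
Level and genotype difference of the 16575 genes tested, with the geometric mean level (CPM + 0.01, log axis) across and the log2 fold change of CGD against WT upwards. Orange points rose (1105) and blue points fell (1034). Cd14 and Spp1 are abundant genes that rose, and most blue points lie below 10 CPM.

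Of the 12 largest increases among genes of at least 10 CPM, 7 were on the list of interferon-gamma-induced genes described next. The others encode an adaptor, a membrane-bound protein, a BCL2 relative, osteopontin and a protein of little-known function. Sh2d5, which encodes an SH2-domain adaptor, was at 16.7, 19.7 and 18.7 CPM in CGD and 1.17, 0.651 and 0.655 CPM in WT libraries (log2 fold change 4.46 ± 0.59, adjusted p = 0.000112). Fam169b stood at 28.5, 28.5 and 19.9 CPM in CGD and 1.11, 1.82 and 1.26 CPM in WT libraries (log2 fold change 4.20 ± 0.40, adjusted p = 4.39e-06). Both were low in every WT library and close together among the CGD libraries. Plekhn1, with a pleckstrin homology domain, was at 13.1, 15.8 and 30.4 CPM in CGD and 1.18, 0.804 and 1.69 CPM in WT libraries (log2 fold change 4.01 ± 0.41, adjusted p = 1.03e-05), and Bcl2l15, a BCL2-family gene, at 20.6, 11.01 and 5.45 CPM in CGD and 1.01, 0.632 and 1.38 CPM in WT libraries (log2 fold change 3.61 ± 0.66, adjusted p = 0.00193). Spp1, for the secreted matrix protein osteopontin, reached 4962, 9486 and 12271 CPM in CGD and 754, 329.6 and 761 CPM in WT libraries (log2 fold change 3.86 ± 0.61, adjusted p = 0.000593), with CGD replicate 1 the lowest of its group.

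**Figure D2:**
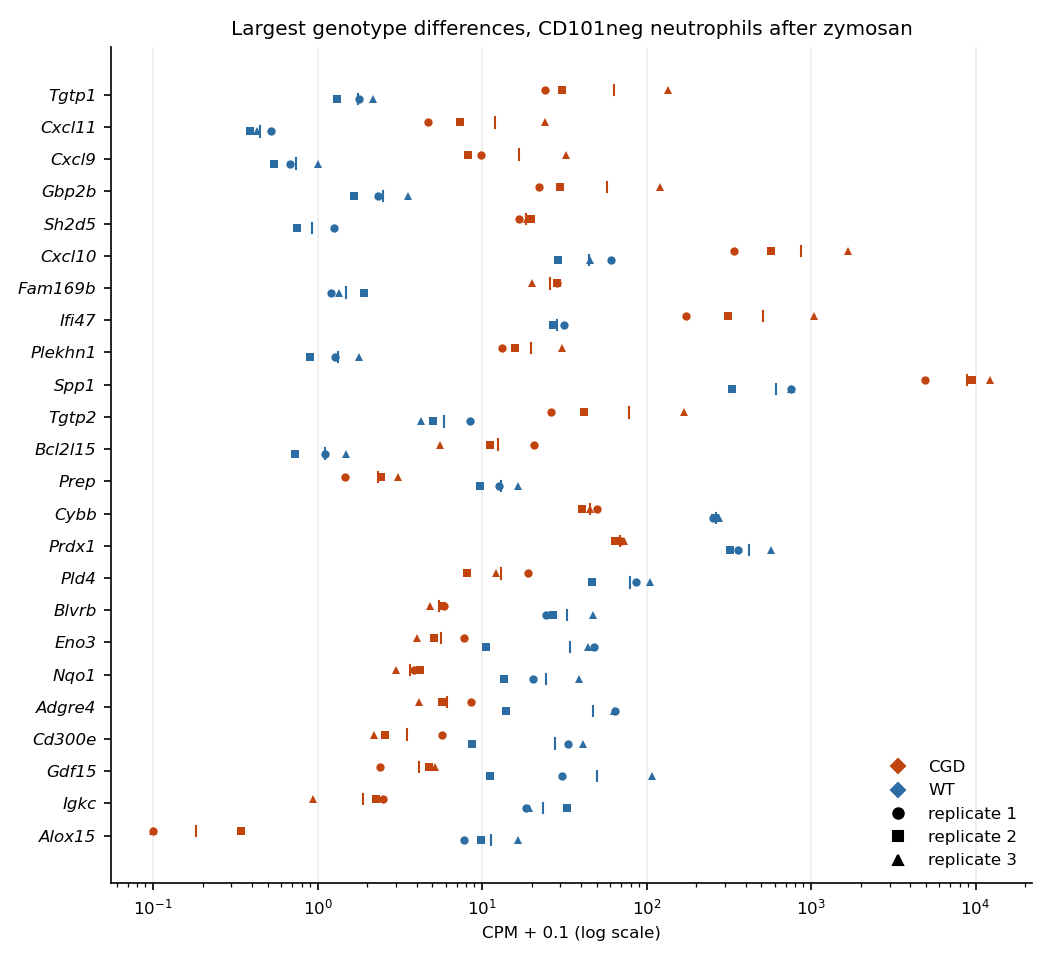
Levels (CPM + 0.1, log axis) of the 12 genes with the largest increase and the 12 with the largest decrease, 1 marker per library and a tick at each mean of 3. Genes were chosen to have no overlap between genotypes. CGD replicate 3 (orange triangles) is highest for the interferon-induced genes, and WT replicate 2 (blue squares) is lowest of WT for Cd300e, Adgre4, Eno3 and Gdf15.

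Among the 12 largest decreases, Pld4, a nuclease of endosomes, was at 19.02, 7.96 and 12.1 CPM in CGD and 86.3, 46.6 and 105 CPM in WT libraries (log2 fold change -2.61 ± 0.40, adjusted p = 0.000419). The adhesion receptor Adgre4 stood at 8.45, 5.64 and 4.02 CPM in CGD and 63.98, 13.97 and 63.4 CPM in WT libraries (log2 fold change -2.97 ± 0.57, adjusted p = 0.00277) and the receptor Cd300e at 5.602, 2.46 and 2.11 CPM in CGD and 33.3, 8.61 and 40.9 CPM in WT libraries (log2 fold change -3.03 ± 0.66, adjusted p = 0.00654). WT replicate 2 was the lowest WT library for all 3. Prep, which encodes a prolyl peptidase, fell (1.38, 2.32 and 2.99 CPM in CGD and 12.5, 9.63 and 16.5 CPM in WT libraries, log2 fold change -2.53 ± 0.31, adjusted p = 5.99e-05), as did Eno3, the muscle form of enolase (-2.62 ± 0.59). Alox15, the lipoxygenase of eosinophils and some macrophages, was at 0, 0.244 and 0 CPM in CGD and 7.65, 9.78 and 16.4 CPM in WT libraries. Counts in only 1 of 3 CGD libraries make the size of its change uncertain (-6.98 ± 1.13).

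Many interferon-induced genes were higher in CGD, most of all in CGD replicate 3. Of 22 measured genes that interferon-gamma induces, 13 rose and 0 fell, with a median of 2.36 against -0.08 over all genes tested. The 13 were the immunity-related GTPases Tgtp1, Tgtp2, Ifi47, Irgm1, Irgm2 and Igtp, the guanylate-binding Gbp2, Gbp2b and Gbp3, the chemokines Cxcl9, Cxcl10 and Cxcl11, and the transcription factor Irf1. Irgm1, which helps to clear intracellular microbes, was at 165, 244 and 703 CPM in CGD and 40.1, 50.96 and 41.3 CPM in WT libraries (log2 fold change 3.07 ± 0.45, adjusted p = 0.000296). Ifi47 was at 174, 315 and 1043 CPM in CGD and 31.2, 26.9 and 27.04 CPM in WT libraries (log2 fold change 4.17 ± 0.57, adjusted p = 0.000151) and Irf1 at 818, 905 and 1685 CPM in CGD and 283, 211 and 256 CPM in WT libraries (log2 fold change 2.18 ± 0.28, adjusted p = 8.9e-05). In each, CGD replicate 3 was far the highest, and CGD replicates 1 and 2 also lay above every WT library. Without CGD replicate 3, 11 rose and 1 fell. Reads of Tgtp1 and Tgtp2, and of neighbouring Gbp genes, may be shared between these near-identical copies. Calls were lost for Gbp3 and Irgm2 without CGD replicate 3 and for Irgm2 without WT replicate 1 or 3 (adjusted p 0.0687 to 0.122).

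For type I interferon-stimulated genes the count changed more with single libraries. Of 32 measured, 12 rose and 0 fell, with a median of 1.03. How many rose became 2 without CGD replicate 3 and 4 without WT replicates 1 or 3. Isg15, a ubiquitin-like protein, was at 188, 235 and 603 CPM in CGD and 70.9, 125 and 97.04 CPM in WT libraries (log2 fold change 1.81 ± 0.36, adjusted p = 0.00328). Parp14 was at 37.8, 48.9 and 107 CPM in CGD and 19.1, 19.9 and 22.7 CPM in WT libraries (log2 fold change 1.65 ± 0.36, adjusted p = 0.00565) and the nucleic acid sensor Zbp1 at 87.6, 98.8 and 254 CPM in CGD and 20.4, 65.7 and 31.8 CPM in WT libraries (log2 fold change 1.90 ± 0.47, adjusted p = 0.0139). The mean log2 CPM of the list was 5.05, 5.45 and 6.76 in CGD and 4.57, 5.19 and 4.64 in WT libraries. CGD replicate 3 stood highest and WT replicate 2 above the other WT libraries. Zbp1 lost its call without CGD replicate 3 (0.0827), WT replicate 1 (0.0625) or WT replicate 3 (0.0557). Other settings, for the list, gave 4 higher and 0 lower with library size only or with only the libraries compared or with no filter.

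**Figure D3:**
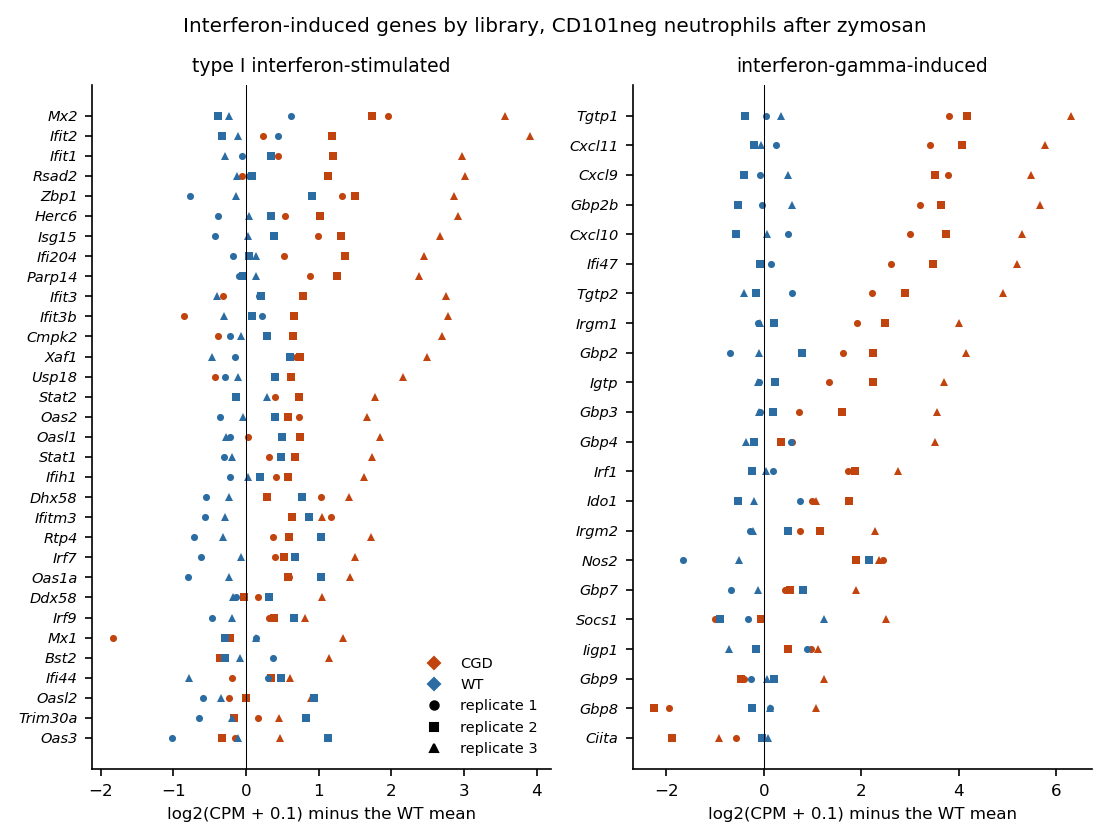
Each marker is 1 library, plotted as its log2(CPM + 0.1) minus the WT mean of the gene (horizontal axis), for 32 type I interferon-stimulated (left) and 22 interferon-gamma-induced genes (right). CGD replicate 3 (orange triangles) lies farthest right for most genes. Nos2 and Socs1 in the right panel vary among WT libraries by more than 2 log2 units.

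Regulatory sequence is shown for Isg15 and Irgm1, which were picked because they hold the motif searched for. The 250 bases before each start in RefSeq (GRCm38.p6) were searched on both strands for the interferon response motif, which is GAAA, any 2 bases and GAAA again, held by 3.04% of 27025 promoters. Capitals mark the joined matches upstream of Isg15 (chr4:156200819-156200938, minus strand) and Irgm1 (chr11:48871421-48871540, minus strand), 57 to 78 and 15 to 30 bases before the start.
Isg15: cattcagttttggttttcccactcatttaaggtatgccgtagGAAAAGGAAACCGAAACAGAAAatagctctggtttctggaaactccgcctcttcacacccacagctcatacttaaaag
Irgm1: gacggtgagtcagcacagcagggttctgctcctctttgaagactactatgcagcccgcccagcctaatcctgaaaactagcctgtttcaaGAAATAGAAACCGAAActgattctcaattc
The promoter table held 68.8% of the genes tested, too few to compare genes that rose with genes that fell. A match describes letters and shows no binding. Cybb and Rpl5, which fell, also held the interferon response motif, and Irf1, which rose, did not.

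Attractants of neutrophils and of T cells were among the chemokine genes that rose. Of 20 chemokine genes measured, 8 rose and 1 fell, with a median of 0.94. Beside the 3 ligands of CXCR3 above, they were the neutrophil attractants Cxcl2, Cxcl3 and Cxcl5, and Ccl9 and Ccl20. Cxcl3 was at 6083, 5225 and 4881 CPM in CGD and 741, 356 and 611 CPM in WT libraries (log2 fold change 3.24 ± 0.30, adjusted p = 3.46e-06). Cxcl2, which was far more abundant, was at 21813, 23654 and 27765 CPM in CGD and 14370.0, 8112 and 12252 CPM in WT libraries and rose less (log2 fold change 1.08 ± 0.23, adjusted p = 0.00519). Ccl20 was near 0 in both genotypes (0.147, 0.285 and 0.272 CPM in CGD and 0, 0 and 0.0364 CPM in WT libraries). The monocyte attractant Ccl7 fell (log2 fold change -1.60 ± 0.37, adjusted p = 0.00863), at 3.78, 9.08 and 11.3 CPM in CGD and 21.6, 29.6 and 22.3 CPM in WT libraries.
The stretch upstream of Cxcl3 (chr5:90785981-90786100, plus strand) is shown for its kB motif, the binding sequence of NF-kB. Capitals mark 2 overlapping matches, 1 on each strand, 63 to 73 bases before the start, and 3.75% of promoters held such a match. Rel, which rose, and Fos and Fosb, which fell, also held the kB motif.
Cxcl3: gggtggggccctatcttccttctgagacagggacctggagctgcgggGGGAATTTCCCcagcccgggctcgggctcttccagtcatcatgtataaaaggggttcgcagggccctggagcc The adjusted p was above 0.05 for Cxcl5 without CGD replicate 1, for Ccl20 and Ccl9 without CGD replicate 2 or 3 or WT replicate 2, for Ccl20 and Cxcl5 without WT replicate 1 and for Ccl9 and Cxcl5 without WT replicate 3 (adjusted p 0.0621 to 0.109). The counts of chemokine genes became 6 higher and 2 lower with library size only, and 5 higher and 1 lower with only the libraries compared.

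Cytokine genes rose in 6 of 20 and fell in 1, with a median of 0.77. Il12a, the p35 chain shared by interleukins 12 and 35, was at 79.2, 81.9 and 98.6 CPM in CGD and 8.501, 9.702 and 8.72 CPM in WT libraries (log2 fold change 3.27 ± 0.28, adjusted p = 1.64e-06). Csf3, for the granulocyte growth factor G-CSF, was at 63.05, 74.05 and 59.2 CPM in CGD and 12.5, 7.27 and 16.4 CPM in WT libraries (log2 fold change 2.44 ± 0.31, adjusted p = 8.34e-05). Each CGD library exceeded the highest WT library more than 3-fold for both. Inhba, a chain of activin A, stood at 188, 332 and 467 CPM in CGD and 94.7, 34.1 and 96.2 CPM in WT libraries (log2 fold change 2.13 ± 0.49, adjusted p = 0.00867). Both chains of interleukin-27 rose, Il27 by 2.02 ± 0.49 and Ebi3 by 0.89 ± 0.23, as did the anti-inflammatory Il10 (1.69 ± 0.49). Tnf (0.72 ± 0.51, adjusted p = 0.388) and Il6 (0.14 ± 0.51, adjusted p = 0.885) did not pass. Gdf15, a stress-induced member of the TGF-beta family, fell (2.29, 4.68 and 5.08 CPM in CGD and 30.5, 11.1 and 109 CPM in WT libraries, log2 fold change -3.64 ± 0.77, adjusted p = 0.00565). Leaving out a library ended the call of Il10 without CGD replicate 1 or WT replicate 2, of Ebi3 and Il10 without CGD replicate 2 or WT replicate 3 and of Ebi3 and Il27 without CGD replicate 3 or WT replicate 1 (adjusted p 0.0509 to 0.103). In the list there were 4 higher and 2 lower with library size only.

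The IL-1 family and inflammasome genes rose in 9 of 23 and fell in 0, with a median of 0.79. Of the 9, 4 restrain this family's cytokines. Irak3, which blocks signalling below the receptor, was at 231, 324 and 299 CPM in CGD and 53.4, 41.5 and 57.5 CPM in WT libraries (log2 fold change 2.49 ± 0.21, adjusted p = 1.32e-06). The receptor antagonist Il1rn was at 12066, 18645 and 23454 CPM in CGD and 7905, 2152 and 6382 CPM in WT libraries (log2 fold change 1.72 ± 0.49, adjusted p = 0.0276), the decoy receptor Il1r2 at 16382, 10770.0 and 6851 CPM in CGD and 3443, 4689 and 3799.9 CPM in WT libraries (log2 fold change 1.51 ± 0.32, adjusted p = 0.00448), and Il18bp, which traps interleukin-18, rose by 1.42 ± 0.38. Il18 itself rose (log2 fold change 1.48 ± 0.29, adjusted p = 0.00287), and so did Il18rap, a chain of its receptor, and the inflammasome genes Casp4, Mefv and Pycard (1.69 ± 0.42, 1.31 ± 0.23 and 0.82 ± 0.26). Il1b, with levels of 13385, 14137 and 14174 CPM in CGD and 10114, 10986 and 10875 CPM in WT libraries, did not pass (log2 fold change 0.38 ± 0.17, adjusted p = 0.153). The threshold was missed by Pycard without CGD replicate 1, by Il1rn and Pycard without CGD replicate 2 or WT replicate 2, by Il18bp, Il1rn and Pycard without CGD replicate 3 or WT replicate 3 and by Casp4 and Il18bp without WT replicate 1 (adjusted p 0.0554 to 0.131). For the list the counts were 7 higher and 2 lower with library size only.

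NF-kB pathway genes rose in 7 of 25 and fell in 0, with a median of 0.44 (-0.05 with scaling by library size only). The 7 include the subunits Nfkb1 (179, 159 and 135 CPM in CGD and 51.8, 55.5 and 53.5 CPM in WT libraries, log2 fold change 1.56 ± 0.18, adjusted p = 2.22e-05), Nfkb2 (1.13 ± 0.24) and Rel (1.12 ± 0.22). They also include the inhibitors Nfkbib (289, 323 and 374 CPM in CGD and 135, 101 and 159 CPM in WT libraries, log2 fold change 1.32 ± 0.20, adjusted p = 0.000402) and Nfkbie (0.97 ± 0.28), the adaptor Tnip1 (1.21 ± 0.28) and the kinase Map3k8 (0.92 ± 0.19). In the TNF superfamily 2 of 18 rose and 1 fell, with a median of 0.06 (-0.41 with scaling by library size only). The death receptor Fas was at 448, 593 and 591 CPM in CGD and 293, 208 and 283 CPM in WT libraries (log2 fold change 1.06 ± 0.19, adjusted p = 0.00114). In this family the number that rose was 1 without CGD replicates 1 or 2 or 3 or without WT replicates 1 or 3. Calls were lost for Nfkbie without CGD replicate 2 or 3 or WT replicate 2 (adjusted p 0.0787 to 0.0937). Other settings, for NF-kB pathway genes, gave 2 higher and 1 lower with library size only, and 11 higher and 0 lower with DESeq2. The counts of the TNF superfamily became 1 higher and 4 lower with library size only.

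Genes for receptors of fungal and bacterial products and for the relay of their signals rose in 8 of 29 and fell in 1. Their median was 0.28 (-0.17 with scaling by library size only). The co-receptor Cd14 took 3.80% of all counts in CGD and 1.82% in WT libraries on average. Its level was 53489, 54060.0 and 43168 CPM in CGD and 15896, 19317 and 16419 CPM in WT libraries (log2 fold change 1.55 ± 0.24, adjusted p = 0.000399). The C-type lectin Clec4e, which binds fungal and mycobacterial glycolipids, was at 3457, 3121 and 3429.7 CPM in CGD and 1955, 1605 and 2051 CPM in WT libraries (log2 fold change 0.83 ± 0.20, adjusted p = 0.00934), and the peptidoglycan sensor Nod2 rose by 0.80 ± 0.15. Malt1, which relays lectin signals to NF-kB, rose by 1.39 ± 0.37. Clec7a, whose product dectin-1 binds the beta-glucan of zymosan, was at 852, 959 and 1167 CPM in CGD and 768, 785 and 899 CPM in WT libraries and did not pass (log2 fold change 0.28 ± 0.19, adjusted p = 0.361). Tlr2, another zymosan receptor, did not pass either (log2 fold change 0.47 ± 0.19, adjusted p = 0.112). The count of those that rose became 4 without WT replicate 2 and 5 without CGD replicates 2 or 3. The adjusted p was above 0.05 for Malt1 without WT replicate 2 (adjusted p 0.0526). In the list there were 2 higher and 5 lower with library size only, and 3 higher and 0 lower with only the libraries compared.

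Chemoattractant receptors went both ways, with 2 of 16 higher and 4 lower and a median of -0.26. The formyl peptide receptors rose: Fpr2 was at 793, 763 and 653 CPM in CGD and 97.4, 256 and 155 CPM in WT libraries (log2 fold change 2.12 ± 0.36, adjusted p = 0.000823), and Fpr1 at 3695, 3302 and 2467 CPM in CGD and 475, 1763 and 781 CPM in WT libraries (log2 fold change 1.65 ± 0.44, adjusted p = 0.0207). WT replicate 2, the WT library richest in S100a8, was also the WT library highest in both. Receptors of other leukocytes fell, namely Ccr2 (-1.48 ± 0.32), C3ar1 (-1.67 ± 0.38), Ccr7 (-1.99 ± 0.41) and Cxcr3 (-1.45 ± 0.46), at levels under 20 CPM. Cxcr2, the receptor for Cxcl2 and Cxcl3, did not pass (log2 fold change -0.16 ± 0.32, adjusted p = 0.79). Those that rose numbered 1 without CGD replicates 1 or 2 or without WT replicates 1 or 3 and 4 without WT replicate 2. Leaving out a library ended the call of Cxcr3 and Fpr1 without CGD replicate 1 or 2 or WT replicate 1 or 3 and of Cxcr3 without CGD replicate 3 (adjusted p 0.0572 to 0.154). For the list the counts were 2 higher and 7 lower with library size only, and 1 higher and 3 lower with only the libraries compared.

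Cd38, which encodes an enzyme that breaks down NAD outside the cell, was at 262, 213 and 139.8 CPM in CGD and 17.7, 29.6 and 14.1 CPM in WT libraries (log2 fold change 3.32 ± 0.31, adjusted p = 3.46e-06). All CGD libraries lay more than 4-fold above all WT libraries. Of the 17 purine signalling genes to which it belongs, 4 rose and 2 fell, with a median of 0.31 (-0.13 with scaling by library size only). Entpd1, for the ATP-degrading enzyme CD39, was at 1575, 1519.9 and 1365 CPM in CGD and 522, 811 and 591 CPM in WT libraries (log2 fold change 1.21 ± 0.21, adjusted p = 0.001). The adenosine receptors Adora2b (119, 225 and 244 CPM in CGD and 54.3, 22.7 and 59.3 CPM in WT libraries, log2 fold change 2.11 ± 0.42, adjusted p = 0.00347) and Adora3 (1.42 ± 0.45) rose. The ATP-gated channel P2rx7 (-1.41 ± 0.34) and the ATP-releasing channel Panx1 (-1.68 ± 0.53) fell, both under 6 CPM. How many fell became 1 without CGD replicates 2 or 3 or without WT replicates 1 or 3. The threshold was missed by Adora3 without CGD replicate 1, by Adora3 and Panx1 without CGD replicate 2 or WT replicate 3, by Panx1 without CGD replicate 3 or WT replicate 2 and by Adora3 and P2rx7 without WT replicate 1 (adjusted p 0.052 to 0.159). Other settings, for purine signalling genes, gave 3 higher and 5 lower with library size only, and 4 higher and 0 lower with only the libraries compared.

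Among genes for Fc receptors and their signalling, 6 of 16 rose and 0 fell, with a median of 0.50. Fcgr4, an IgG receptor, was at 304, 291 and 302 CPM in CGD and 103, 214 and 124 CPM in WT libraries (log2 fold change 1.03 ± 0.23, adjusted p = 0.00711), and the exchange factor Vav3 at 32.9, 29.3 and 32.2 CPM in CGD and 16.1, 14.2 and 16.9 CPM in WT libraries (log2 fold change 1.00 ± 0.17, adjusted p = 0.000761). The inhibitory phosphatases Ptpn6 and Inpp5d rose too (0.64 ± 0.18 and 0.63 ± 0.19), with the kinase Lyn (0.80 ± 0.23) and the common chain Fcer1g (0.85 ± 0.22). Leaving out libraries changed how many rose, to 2 without CGD replicate 2 and 3 without CGD replicate 1 or without WT replicates 1 or 3. Ptpn6 lost its call without CGD replicate 2 (0.0894), CGD replicate 3 (0.111), WT replicate 1 (0.0748) or WT replicate 3 (0.0618), and Fcer1g without CGD replicate 1 (0.0621), CGD replicate 2 (0.0502), WT replicate 1 (0.0787) or WT replicate 3 (0.061). Calls were lost for Inpp5d and Lyn without CGD replicate 1 or 2, for Lyn without CGD replicate 3 or WT replicate 1 or 3 and for Inpp5d without WT replicate 2 (adjusted p 0.0591 to 0.131). The counts of the list became 2 higher and 2 lower with library size only, and 1 higher and 0 lower with only the libraries compared.

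Antigen presentation genes rose in 5 of 24 and fell in 2, with a median of 0.50. The peptide transporter Tap1 of the class I pathway was at 117, 161 and 333 CPM in CGD and 34.7, 65.4 and 47.7 CPM in WT libraries (log2 fold change 2.05 ± 0.37, adjusted p = 0.00159), the class I activator Nlrc5 at 42.3, 42.9 and 79.1 CPM in CGD and 12.6, 12.1 and 16.96 CPM in WT libraries (log2 fold change 1.98 ± 0.29, adjusted p = 0.000239), and the class I genes H2-K1 and H2-Q4 rose by 0.72 ± 0.20 and 0.90 ± 0.22. The costimulator Cd80 was at 153, 139.9 and 166 CPM in CGD and 60.4, 56.2 and 60.6 CPM in WT libraries (log2 fold change 1.37 ± 0.16, adjusted p = 3.4e-05). H2-DMa and H2-DMb1 of the class II pathway, which B cells and macrophages use, fell (-1.33 ± 0.34 and -1.18 ± 0.35). Without CGD replicate 1 the number that rose was 8 and without CGD replicate 3 it was 3, and H2-Q4 lost its call without the latter (adjusted p = 0.0674). The count of those that fell became 0 without CGD replicate 2 or without WT replicate 1 and 1 without CGD replicate 3 or without WT replicate 3. The adjusted p was above 0.05 for H2-DMa and H2-DMb1 without CGD replicate 2, for H2-DMb1 and H2-K1 without CGD replicate 3, for H2-DMa, H2-DMb1 and H2-K1 without WT replicate 1, for H2-K1 without WT replicate 2 and for H2-DMb1 without WT replicate 3 (adjusted p 0.0564 to 0.142). In the list there were 3 higher and 3 lower with library size only, and 3 higher and 1 lower with only the libraries compared.

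In adhesion, 3 of 20 genes rose and 1 fell, with a median of -0.03. Cd47, the signal that stops phagocytosis of the cell that bears it, was at 549.9, 549 and 485 CPM in CGD and 180.1, 229.7 and 194 CPM in WT libraries (log2 fold change 1.39 ± 0.19, adjusted p = 0.000157). The integrin chain Itga4 fell (16.4, 10.99 and 11.2 CPM in CGD and 25.9, 36.2 and 40.98 CPM in WT libraries, log2 fold change -1.42 ± 0.23, adjusted p = 0.000535). How many rose became 1 without CGD replicates 2 or 3. Genes of matrix and proteolysis rose in 7 of 22 and fell in 0, with a median of 0.91. Beside Spp1 they include thrombospondin 1, Thbs1 (5616, 6309.5 and 6514 CPM in CGD and 1552, 836 and 2064 CPM in WT libraries, log2 fold change 2.05 ± 0.37, adjusted p = 0.00144), and the urokinase receptor Plaur (7034, 6947 and 5949.8 CPM in CGD and 2622, 3045 and 3283 CPM in WT libraries, log2 fold change 1.15 ± 0.19, adjusted p = 0.000638). The rest were Serpinb2 (1.76 ± 0.42), Mmp12 (1.76 ± 0.50), Adam8 (1.38 ± 0.37) and Tgm2 (1.32 ± 0.33). Leaving out a library ended the call of Adam8 and Mmp12 without CGD replicate 1 or WT replicate 1 or 3 and of Mmp12 without WT replicate 2 (adjusted p 0.0618 to 0.134). For adhesion genes the counts were 1 higher and 5 lower with library size only, and 1 higher and 1 lower with only the libraries compared. Other settings, for matrix genes, gave 4 higher and 1 lower with no filter.

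Of the 37 process lists, the antioxidant genes had the highest share of members that fell. Of 31, 14 fell and 4 rose, with a median of -0.64, against 6.24% that fell among all genes tested. The peroxide scavenger Prdx1 was at 69.999, 64.6 and 73.2 CPM in CGD and 362, 319.9 and 572 CPM in WT libraries (log2 fold change -2.59 ± 0.25, adjusted p = 3.86e-06). Blvrb, a flavin reductase of haem breakdown, was at 5.77, 5.58 and 4.72 CPM in CGD and 24.5, 26.9 and 47.4 CPM in WT libraries (log2 fold change -2.62 ± 0.23, adjusted p = 1.64e-06), and the quinone reductase Nqo1 at 3.76, 4.07 and 2.88 CPM in CGD and 20.3, 13.6 and 38.96 CPM in WT libraries (log2 fold change -2.76 ± 0.42, adjusted p = 0.000343). WT replicate 3 was the highest library for all 3, and no CGD library reached the lowest WT library.
Both chains of the enzyme that starts glutathione synthesis fell, Gclc by -1.87 ± 0.46 and Gclm by -2.20 ± 0.44. So did catalase, Cat (11.8, 6.55 and 8.01 CPM in CGD and 27.4, 26.6 and 33.3 CPM in WT libraries, log2 fold change -1.73 ± 0.22, adjusted p = 6.57e-05), and haem oxygenase 1, Hmox1 (202, 237 and 326 CPM in CGD and 476, 580.0 and 871 CPM in WT libraries, log2 fold change -1.33 ± 0.25, adjusted p = 0.00203). The others that fell were Srxn1, Osgin1, Sod1, Keap1, Prdx2, Prdx4 and Ftl1, by -1.30 to -0.74. Those that fell numbered 9 without WT replicate 3. Members that rose were the mitochondrial superoxide dismutase Sod2 (604, 688 and 751 CPM in CGD and 319, 168 and 308 CPM in WT libraries, log2 fold change 1.36 ± 0.26, adjusted p = 0.00197), Prdx5 (2445, 2483 and 2228 CPM in CGD and 603, 1174 and 645 CPM in WT libraries, log2 fold change 1.56 ± 0.31, adjusted p = 0.00267), Prdx6 (0.62 ± 0.20) and the ferritin heavy chain Fth1 (0.97 ± 0.22). Nfe2l2, for NRF2 itself (0.18 ± 0.17), and its target Txnrd1 (-0.04 ± 0.27) did not pass. Macrophage markers fell beside this list, as given below, and their part in the result was not tested. The threshold was missed by Ftl1, Keap1, Prdx4 and Prdx6 without CGD replicate 1, by Ftl1, Keap1, Prdx2, Prdx4 and Prdx6 without CGD replicate 2, by Ftl1, Keap1, Prdx4, Prdx6 and Srxn1 without CGD replicate 3, by Ftl1, Prdx2, Prdx4 and Prdx6 without WT replicate 1, by Prdx4 and Prdx6 without WT replicate 2 and by Ftl1, Gclc, Keap1, Prdx4, Prdx6 and Srxn1 without WT replicate 3 (adjusted p 0.0524 to 0.183). The counts of antioxidant genes became 2 higher and 22 lower with library size only, and 2 higher and 9 lower with only the libraries compared.

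The stretch upstream of Prdx1 (chr4:116685456-116685598, plus strand) is shown for its antioxidant response core, TGACNNNGC, found on the minus strand 125 to 133 bases before the start and held by 10.1% of promoters. Capitals mark the match, which also contains the AP-1 letters TGACTCA. Mt2 and Smox, which rose, also held the core, and a match shows no binding.
Prdx1: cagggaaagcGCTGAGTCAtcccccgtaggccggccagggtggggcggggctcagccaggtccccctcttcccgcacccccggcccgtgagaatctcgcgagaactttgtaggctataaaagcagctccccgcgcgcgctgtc

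Genes of metal handling rose in 3 of 14 and fell in 1, with a median of 0.10 (-0.41 with scaling by library size only). The metal-binding Mt2 was at 21.1, 14.4 and 10.5 CPM in CGD and 3.83, 2.93 and 2.69 CPM in WT libraries (log2 fold change 2.28 ± 0.30, adjusted p = 0.000104). Slc11a1, which pumps metals out of the phagosome, was at 1583, 1966 and 1878 CPM in CGD and 728, 710.4 and 842 CPM in WT libraries (log2 fold change 1.25 ± 0.17, adjusted p = 0.000101). The iron exporter Slc40a1 fell (409, 280.4 and 192 CPM in CGD and 459, 1222 and 762 CPM in WT libraries, log2 fold change -1.47 ± 0.36, adjusted p = 0.011), and lost its call without CGD replicate 3 (0.0545) or WT replicate 2 (0.0534). The light and heavy ferritin chains went opposite ways, with Ftl1 at 0.539% and 1.26% and Fth1 at 5.08% and 3.64% of counts in CGD and WT libraries. Calls were lost for Ftl1 without CGD replicate 1 or 2 or 3 or WT replicate 1 or 3 (adjusted p 0.0541 to 0.183). In the list there were 4 higher and 3 lower with library size only, and 3 higher and 0 lower with only the libraries compared.

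In glycolysis 5 of 24 genes rose and 1 fell, with a median of 0.51. The phosphofructokinase Pfkp was at 206, 257 and 341 CPM in CGD and 50.8, 49.98 and 51.6 CPM in WT libraries (log2 fold change 2.40 ± 0.20, adjusted p = 1.32e-06), and the hexokinases Hk1 and Hk2 rose by 1.24 ± 0.22 and 1.03 ± 0.21. The WT libraries differed little from each other in Pfkp. The count of those that rose became 3 without CGD replicates 2 or 3 or without WT replicates 1 or 3 and 10 without WT replicate 2, and the number that fell 0 without CGD replicates 1 or 2 or 3 or without WT replicate 3 and 2 without WT replicate 1. The nuclear genes of the respiratory chain had 0 of 48 past the threshold, and the lowest adjusted p among them was 0.0728 (Uqcrc1, -0.43 ± 0.15). With DESeq2 1 of them fell. Of 13 mitochondrially encoded genes mt-Nd1 alone fell (log2 fold change -0.59 ± 0.19, adjusted p = 0.0492), and not when any 1 library was left out (adjusted p 0.0535 to 0.171). For glycolysis genes the counts were 2 higher and 3 lower with library size only, and 3 higher and 0 lower with only the libraries compared. Other settings, for nuclear respiratory chain genes, gave 0 higher and 17 lower with library size only. The counts of mitochondrially encoded genes became 0 higher and 8 lower with library size only, and 0 higher and 0 lower with only the libraries compared.

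Lipid handling genes rose in 3 of 24 and fell in 5, with a median of -0.40. Abca1, the cholesterol exporter, was at 58.2, 62.1 and 42.5 CPM in CGD and 8.56, 12.3 and 11.5 CPM in WT libraries (log2 fold change 2.33 ± 0.22, adjusted p = 4.32e-06). Hilpda, which restrains fat breakdown in lipid droplets, was at 937, 935 and 914 CPM in CGD and 317, 273 and 265 CPM in WT libraries (log2 fold change 1.70 ± 0.27, adjusted p = 0.00055). Both genotypes were tight within themselves for these genes. Among those that fell were Apoe (80.1, 162 and 118 CPM in CGD and 269, 217 and 383 CPM in WT libraries), Scd2, Pparg and Abcg1, by -1.68 to -0.79. How many fell became 2 without CGD replicate 2 and 3 without CGD replicates 1 or 3 or without WT replicate 3. The adjusted p was above 0.05 for Abcg1 without CGD replicate 1 or 3 or WT replicate 1 or 3 and for Abcg1 and Pparg without CGD replicate 2 (adjusted p 0.0513 to 0.146). In the list there were 2 higher and 10 lower with library size only, and 2 higher and 2 lower with only the libraries compared.

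Among genes of arginine, polyamine and itaconate metabolism 4 of 15 rose and 0 fell, with a median of 0.31 (-0.18 with scaling by library size only). Smox, an oxidase of spermine that releases hydrogen peroxide, was at 929, 896 and 964 CPM in CGD and 235, 331 and 308 CPM in WT libraries (log2 fold change 1.67 ± 0.29, adjusted p = 0.000927). Acod1, which makes itaconate, was at 4233, 3164 and 3758 CPM in CGD and 1849, 1701 and 1909 CPM in WT libraries (log2 fold change 1.03 ± 0.23, adjusted p = 0.00624). Odc1 (0.70 ± 0.22) and Sat1 (0.72 ± 0.23) were closer to the threshold, and the number that rose was 2 without CGD replicates 2 or 3 or without WT replicates 1 or 3. Leaving out a library ended the call of Sat1 without CGD replicate 1 and of Odc1 and Sat1 without CGD replicate 2 or 3 or WT replicate 1 or 2 or 3 (adjusted p 0.0591 to 0.141). For the list the counts were 2 higher and 2 lower with library size only.

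Lysosome genes rose in 3 of 43 and fell in 7, with a median of -0.12. The sialidase Neu1 was at 188, 249.7 and 212 CPM in CGD and 61.4, 71.5 and 75.95 CPM in WT libraries (log2 fold change 1.64 ± 0.18, adjusted p = 1.66e-05) and the proton pump subunit Atp6v1e1 at 798, 918 and 842 CPM in CGD and 387, 379 and 461 CPM in WT libraries (log2 fold change 1.06 ± 0.18, adjusted p = 0.000896). The lipase Lipa fell (123, 103 and 82.5 CPM in CGD and 319, 186 and 382 CPM in WT libraries, log2 fold change -1.52 ± 0.26, adjusted p = 0.00094), with Ctsa (-1.25 ± 0.26), the cholesterol transporter Npc1 (-1.58 ± 0.41), Hexa, Tfeb, Lamp1 and Ctsd. The count of those that fell became 3 without CGD replicate 1 or without WT replicate 3 and 4 without CGD replicate 2. In autophagy 0 of 24 rose and 3 fell, among them Gabarapl1 (11.6, 15.6 and 13.4 CPM in CGD and 34.8, 27.2 and 39.9 CPM in WT libraries, log2 fold change -1.32 ± 0.24, adjusted p = 0.00171). The number in autophagy that fell was 1 without CGD replicate 2 or without WT replicate 3. The threshold was missed by Ctsd, Lamp1, Npc1 and Tfeb without CGD replicate 1 or WT replicate 3, by Ctsd, Lamp1 and Npc1 without CGD replicate 2, by Lamp1 without CGD replicate 3 and by Ctsd and Lamp1 without WT replicate 1 (adjusted p 0.0536 to 0.238). Other settings, for lysosome genes, gave 2 higher and 21 lower with library size only, and 3 higher and 2 lower with only the libraries compared. The counts of autophagy genes became 0 higher and 15 lower with library size only, 0 higher and 1 lower with only the libraries compared, and 3 higher and 4 lower with DESeq2.

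**Figure D4:**
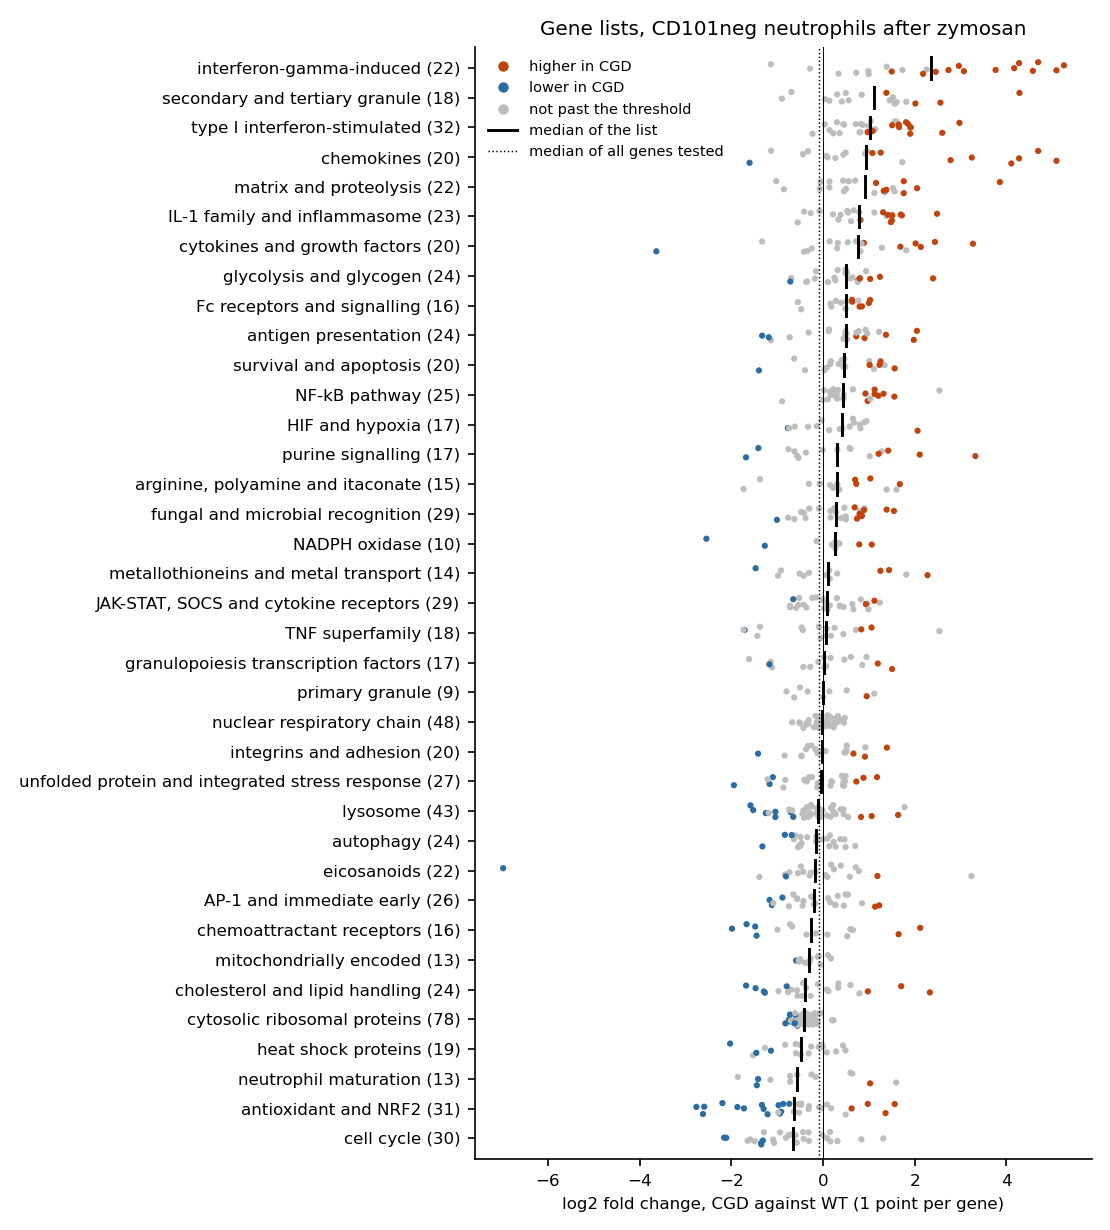
Log2 fold changes (horizontal axis, 1 point per gene) of the measured members of 37 gene lists, ordered by median, with the number measured in brackets. Black bars mark list medians and the dotted line the median of all genes tested (-0.08). The interferon-gamma-induced list stands highest at 2.36, and the antioxidant list holds the most genes that fell by number with the ribosomal list, 14 each.

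Of 18 secondary and tertiary granule genes 4 rose and 0 fell, with a median of 1.11 (0.52 without CGD replicate 1). The chitinase-like Chil3 was at 2163, 2340.4 and 1298 CPM in CGD and 347, 406 and 231 CPM in WT libraries (log2 fold change 2.56 ± 0.42, adjusted p = 0.000703) and Olfm4, which marks a subset of neutrophils, at 93.4, 71.97 and 63.2 CPM in CGD and 10.4, 28.2 and 17.997 CPM in WT libraries (log2 fold change 2.01 ± 0.45, adjusted p = 0.00736). Adam8 rose (1.38 ± 0.37), and Ptx3, which also rose, was near 0 in both genotypes (0.295, 0.285 and 0.182 CPM in CGD and 0.0292, 0 and 0 CPM in WT libraries). Those that rose numbered 2 without WT replicate 3. In the primary class 1 of 9 rose, the protease activator Ctsc (302, 283 and 365 CPM in CGD and 174, 158 and 159 CPM in WT libraries, log2 fold change 0.95 ± 0.19, adjusted p = 0.00332), with a median of 0.00 (-0.49 with scaling by library size only). Within each genotype the libraries stood in the same order for Olfm4 as for the neutrophil markers S100a8 and Ly6g given above, and the part of that spread in the result was not tested. Chil3 has near-identical copies that may share its reads. Calls were lost for Adam8 without CGD replicate 1 or WT replicate 1, for Ptx3 without CGD replicate 2 or WT replicate 2 and for Adam8 and Ptx3 without WT replicate 3 (adjusted p 0.0578 to 0.0876). In primary granule genes there were 0 higher and 1 lower with library size only.

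Of 13 genes that change as neutrophils mature, Fcgr4 rose and Cd101 and Itga4 fell. Of 17 transcription factors of granulopoiesis 2 rose and 1 fell. Id2 was at 824, 904 and 562 CPM in CGD and 292, 192 and 322 CPM in WT libraries (log2 fold change 1.51 ± 0.30, adjusted p = 0.00311). Cebpe, needed for secondary granules, was at 7.67, 16.2 and 18.9 CPM in CGD and 6.18, 5.57 and 6.97 CPM in WT libraries (log2 fold change 1.19 ± 0.29, adjusted p = 0.0125), and lost its call without CGD replicate 2 (0.0534) or CGD replicate 3 (0.0657). Cell cycle genes fell in 5 of 30 and rose in 0, with a median of -0.66. The 5 belong to DNA replication, Mcm2, Mcm3, Mcm5, Mcm6 and Rrm1, and were all under 7 CPM in every library. The proliferation marker Mki67 was at 4.99, 5.39 and 4.54 CPM in CGD and 3.17, 1.44 and 9.44 CPM in WT libraries and did not pass (log2 fold change 0.09 ± 0.49, adjusted p = 0.93). Those that fell numbered 2 without CGD replicate 2 or without WT replicate 1 and 3 without CGD replicate 3. The adjusted p was above 0.05 for Mcm6 without CGD replicate 1 or WT replicate 3, for Mcm2, Mcm3 and Mcm6 without CGD replicate 2 or WT replicate 1 and for Mcm2 and Mcm3 without CGD replicate 3 (adjusted p 0.0579 to 0.17). For maturation genes the counts were 1 higher and 6 lower with library size only, and 0 higher and 2 lower with only the libraries compared. Other settings, for transcription factors, gave 1 higher and 5 lower with library size only, and 1 higher and 0 lower with only the libraries compared. The counts of cell cycle genes became 0 higher and 8 lower with library size only.

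Of 26 immediate early genes 2 rose and 3 fell, with a median of -0.19. These are 7.69% and 11.5% of the list, against 6.67% and 6.24% of all genes tested. Fos was at 1005, 1224 and 1039 CPM in CGD and 1882, 2598 and 2612 CPM in WT libraries (log2 fold change -1.12 ± 0.22, adjusted p = 0.00247), and Fosb and Atf3 fell by -0.89 ± 0.27 and -1.17 ± 0.37. The nuclear receptors Nr4a2 and Nr4a3 rose by 1.13 ± 0.34 and 1.23 ± 0.34. Leaving out libraries changed how many rose, to 0 without CGD replicates 2 or 3 or without WT replicate 2 and 1 without WT replicates 1 or 3, and the number that fell 1 without CGD replicates 1 or 2 or without WT replicates 1 or 3. Of 27 genes of the unfolded protein and integrated stress responses 3 rose and 3 fell. The response factor Xbp1 was at 529.8, 655 and 558 CPM in CGD and 279, 225 and 267 CPM in WT libraries (log2 fold change 1.18 ± 0.20, adjusted p = 0.000802), and the endoplasmic reticulum chaperones Manf and Hspa5 rose by 0.88 ± 0.23 and 0.72 ± 0.19. The kinase Eif2ak3 (-1.10 ± 0.23), Pdia4 (-1.17 ± 0.32) and Sdf2l1 (-1.94 ± 0.33) fell. How many rose became 1 without CGD replicate 2 or without WT replicate 2. Leaving out a library ended the call of Atf3, Fosb and Pdia4 without CGD replicate 1, of Atf3, Fosb, Hspa5, Manf, Nr4a2, Nr4a3 and Pdia4 without CGD replicate 2, of Fosb, Nr4a2, Nr4a3 and Pdia4 without CGD replicate 3, of Atf3, Fosb, Nr4a2 and Pdia4 without WT replicate 1, of Hspa5, Manf, Nr4a2 and Nr4a3 without WT replicate 2 and of Atf3, Fosb and Nr4a2 without WT replicate 3 (adjusted p 0.0554 to 0.164). In immediate early genes there were 0 higher and 10 lower with library size only, and 1 higher and 1 lower with only the libraries compared. For stress response genes the counts were 1 higher and 8 lower with library size only.

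Cytosolic ribosomal protein genes fell in 14 of 78 and rose in 0, with a median of -0.42. The changes were small: Rpl5 was at 41.3, 39.3 and 37.9 CPM in CGD and 70.5, 58.8 and 69.4 CPM in WT libraries (log2 fold change -0.75 ± 0.16, adjusted p = 0.0053), and Rps18 showed the largest, at -0.82 ± 0.19. Their number was 3 without CGD replicate 2, 5 without CGD replicate 3 or without WT replicate 1 and 6 without WT replicate 3. Other settings, for the list, gave 0 higher and 73 lower with library size only, 0 higher and 0 lower with only the libraries compared, and 0 higher and 8 lower with RLE factors.

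Cell death genes rose in 4 of 20 and fell in 1, with a median of 0.45 (-0.03 with scaling by library size only). They act in both directions. Casp8, which starts death-receptor apoptosis, was at 74.8, 84.5 and 94.1 CPM in CGD and 31.7, 26.98 and 27.2 CPM in WT libraries (log2 fold change 1.56 ± 0.21, adjusted p = 0.000108), and Cflar, which holds it in check, at 335, 380.1 and 428 CPM in CGD and 194, 115 and 178 CPM in WT libraries (log2 fold change 1.23 ± 0.23, adjusted p = 0.00179). Bcl2l11, for the killer BIM, was at 487, 516 and 598 CPM in CGD and 229.8, 175 and 266 CPM in WT libraries (log2 fold change 1.25 ± 0.19, adjusted p = 0.000421), and the protective Bcl2l1 rose by 1.02 ± 0.28. Bcl2 fell from a low level (1.55, 0.834 and 1.66 CPM in CGD and 4.32, 1.84 and 4.46 CPM in WT libraries, log2 fold change -1.40 ± 0.37, adjusted p = 0.0172), a call lost without CGD replicate 2 (0.0888), WT replicate 1 (0.0643) or WT replicate 3 (0.0663). In the other lists few genes passed. They were 2 up and 1 down of 29 for JAK-STAT, SOCS and cytokine receptors, among them the GM-CSF receptor Csf2ra (log2 fold change 1.12 ± 0.23, adjusted p = 0.00359). Of the HIF and hypoxia list 1 of 17 rose and 1 fell, of eicosanoid genes 1 of 22 rose and 2 fell, and of heat shock proteins 0 of 19 rose and 3 fell. Of heat shock genes the number that fell was 0 without CGD replicates 1 or 2 or without WT replicate 1 and 1 without WT replicate 3, and of eicosanoid genes 1 without CGD replicates 2 or 3 or without WT replicates 1 or 2. The threshold was missed by Bcl2l1 without CGD replicate 2 or WT replicate 1 or 2 (adjusted p 0.0519 to 0.0801). The counts of cell death genes became 2 higher and 2 lower with library size only, and 4 higher and 0 lower with only the libraries compared. In JAK-STAT genes there were 1 higher and 8 lower with library size only, 1 higher and 0 lower with only the libraries compared, and 5 higher and 2 lower with DESeq2. For hypoxia genes the counts were 1 higher and 4 lower with library size only, and 1 higher and 0 lower with only the libraries compared. Other settings, for eicosanoid genes, gave 0 higher and 5 lower with library size only, and 1 higher and 1 lower with only the libraries compared. The counts of heat shock genes became 0 higher and 13 lower with library size only, and 0 higher and 0 lower with only the libraries compared.

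Over the 12 lists of markers of cell types other than neutrophils, 42 of 123 measured genes fell and 3 rose. Of all genes tested 6.24% fell. Most were low in both genotypes. B cell markers fell in 9 of 12, and their summed level was 29.8 to 50.05 CPM in CGD and 130 to 158 CPM in WT libraries. Igkc, the kappa light chain, was at 2.41, 2.16 and 0.839 CPM in CGD and 18.5, 32.6 and 19.1 CPM in WT libraries (log2 fold change -3.70 ± 0.36, adjusted p = 5.1e-06). Among markers of monocytes and interstitial macrophages 11 of 14 fell (summed level 851 to 1051 against 1170 to 1316 CPM), among them the complement genes C1qa (2.78, 2.91 and 2.06 CPM in CGD and 10.4, 15.2 and 7.57 CPM in WT libraries, log2 fold change -2.10 ± 0.32, adjusted p = 0.000393) and C1qc (-2.21 ± 0.39). Alveolar macrophage markers fell in 7 of 13. Their summed level, which abundant members dominate, overlapped (233 to 386 against 174 to 321 CPM). Their mean log2 CPM did not, at 2.14, 1.95 and 1.98 in CGD and 3.41, 2.83 and 2.78 in WT libraries. Mrc1, the mannose receptor, was at 2.801, 3.81 and 2.18 CPM in CGD and 12.1, 9.87 and 6.55 CPM in WT libraries (log2 fold change -1.70 ± 0.36, adjusted p = 0.00429).
T and NK cell markers fell in 4 of 14 (13.0 to 19.8 against 27.8 to 29.3 CPM), dendritic cell markers in 3 of 10, and fibroblast markers in 4 of 12. Epithelial, endothelial and erythroid markers had 0 of 14, 0 of 11 and 0 of 6 past the threshold in edgeR, and 1, 2 and 0 with DESeq2. At an unadjusted p under 0.05 they had 5, 4 and 0. Of the basophil and mast cell list, Hdc, which makes histamine and is also made by neutrophils, rose (7229.7, 5791 and 5329 CPM in CGD and 1042, 2967 and 1670.1 CPM in WT libraries, log2 fold change 1.69 ± 0.35, adjusted p = 0.00393), as did the interleukin-33 receptor Il1rl1 (1.62 ± 0.41), and the chymase Cma1 fell (-4.00 ± 1.23). Mcpt8 was at 0 in every library of both genotypes, and Ms4a2 in every CGD library. Prg3, Siglech, Pax5 and Jchain were also at 0 in every CGD library. How many fell became 7 without CGD replicate 2 for monocyte markers, 3 without CGD replicate 2 and 4 without WT replicate 1 for alveolar macrophage markers, 1 without CGD replicates 1 or 2 or without WT replicate 1 for dendritic cell markers and 1 without CGD replicates 2 or 3 and 2 without WT replicate 1 for fibroblast markers. The part of these cells or their RNA in the genotype differences above was not tested. Calls were lost for Cma1 without CGD replicate 1 or 3, for Cma1 and Il1rl1 without WT replicate 2 and for Il1rl1 without WT replicate 3 (adjusted p 0.0527 to 0.176). In T and NK cell markers there were 0 higher and 7 lower with library size only or with DESeq2. For dendritic cell markers the counts were 0 higher and 1 lower with only the libraries compared. Other settings, for fibroblast markers, gave 0 higher and 10 lower with library size only, 0 higher and 2 lower with only the libraries compared, and 1 higher and 7 lower with DESeq2. The counts of epithelial markers became 0 higher and 6 lower with library size only, and 0 higher and 3 lower with the replicate block. In endothelial markers there were 0 higher and 3 lower with library size only. For basophil and mast cell markers the counts were 1 higher and 1 lower with library size only, and 2 higher and 0 lower with only the libraries compared.

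Whether the genotype difference was larger in CD101neg than in CD101pos cells was tested by the interaction of genotype with CD101 in the zymosan groups. It passed for 141 genes, 0.851% of those tested, of which 30 had the higher and 111 the lower value in CD101neg cells. Among the genes that rose in CD101neg CGD cells 24 passed, and among those that fell 99. CD101neg and CD101pos libraries of one number deviated together from their group means in WT (correlation over genes 0.312 to 0.487). In CGD the correlation was 0.236, 0.0245 and 0.26 for replicates 1, 2 and 3, so replicate 2 showed almost none. The interaction test treats all libraries as unpaired and does not use these correlations. Its SE and p-values are therefore those of an unpaired test.
Plekhn1 had a log2 fold change of 4.01 ± 0.41 in CD101neg and 1.51 ± 0.38 in CD101pos cells (interaction 2.49 ± 0.53, adjusted p = 0.031). Il12a stood at 3.27 ± 0.28 against 1.58 ± 0.27 (1.69 ± 0.37, adjusted p = 0.038), Irak3 at 2.49 ± 0.21 against 1.14 ± 0.20 (1.35 ± 0.28, adjusted p = 0.024), and Neu1 at 1.64 ± 0.18 against 0.52 ± 0.18 (1.11 ± 0.25, adjusted p = 0.043). Vav3 stood at 1.00 ± 0.17 against -0.14 ± 0.16 (1.14 ± 0.23, adjusted p = 0.024). Interactions with the higher value in CD101neg cells depended on the scaling and the fit. Over all genes tested they numbered 30 in the main fit, 1 with library size only and 2 with only the libraries compared.

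The antioxidant genes Prdx1, Blvrb, Cat and Nqo1 were lower in CD101neg CGD cells, and in CD101pos cells their differences were 0.31 ± 0.23, -0.17 ± 0.21, 0.04 ± 0.21 and 0.17 ± 0.40. The interaction passed for each, with -2.90 ± 0.33 for Prdx1 (adjusted p = 0.00097) and -2.45 ± 0.31 for Blvrb (adjusted p = 0.0011). Over the whole lists it passed for 5 of 31 antioxidant genes, 8 of 14 markers of monocytes and interstitial macrophages and 4 of 13 of alveolar macrophages. C1qa was at -2.10 ± 0.32 in CD101neg and 1.60 ± 0.31 in CD101pos cells (-3.70 ± 0.45, adjusted p = 0.001), and Mrc1 at -1.70 ± 0.36 and 1.74 ± 0.35 (-3.44 ± 0.50, adjusted p = 0.0031). The part of macrophage RNA in the antioxidant difference was not tested. For Cxcl3 (0.31 ± 0.39), Cd38 (0.56 ± 0.40), Smox (0.44 ± 0.39) and Ifi47 (1.42 ± 0.71) the interaction did not pass, which does not show that the subsets responded alike. The interaction count changed with single libraries. It was 49, 53, 250, 59 and 83 without CD101neg CGD replicate 2, WT replicate 1, WT replicate 2, CGD replicate 3 and WT replicate 3. It was 84, 43, 519, 59 and 44 without CD101pos CGD replicate 2, CGD replicate 3, WT replicate 1, WT replicate 2 and WT replicate 3. Of the 23 named genes past the interaction, Prdx1, Blvrb, Cat, Mrc1, Fcrls and the 3 C1q genes stayed past it whichever of the 12 libraries was left out. Plekhn1, Il12a, Irak3, Neu1 and Vav3 all missed it without CD101neg CGD replicate 2 or 3 or WT replicate 1, and without CD101pos CGD replicate 2 or WT replicate 3 (adjusted p 0.0516 to 0.125). Nqo1 missed it without CD101neg CGD replicate 2 or 3 or WT replicate 3, or CD101pos WT replicate 2 (0.054 to 0.0571).

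**Figure D5:**
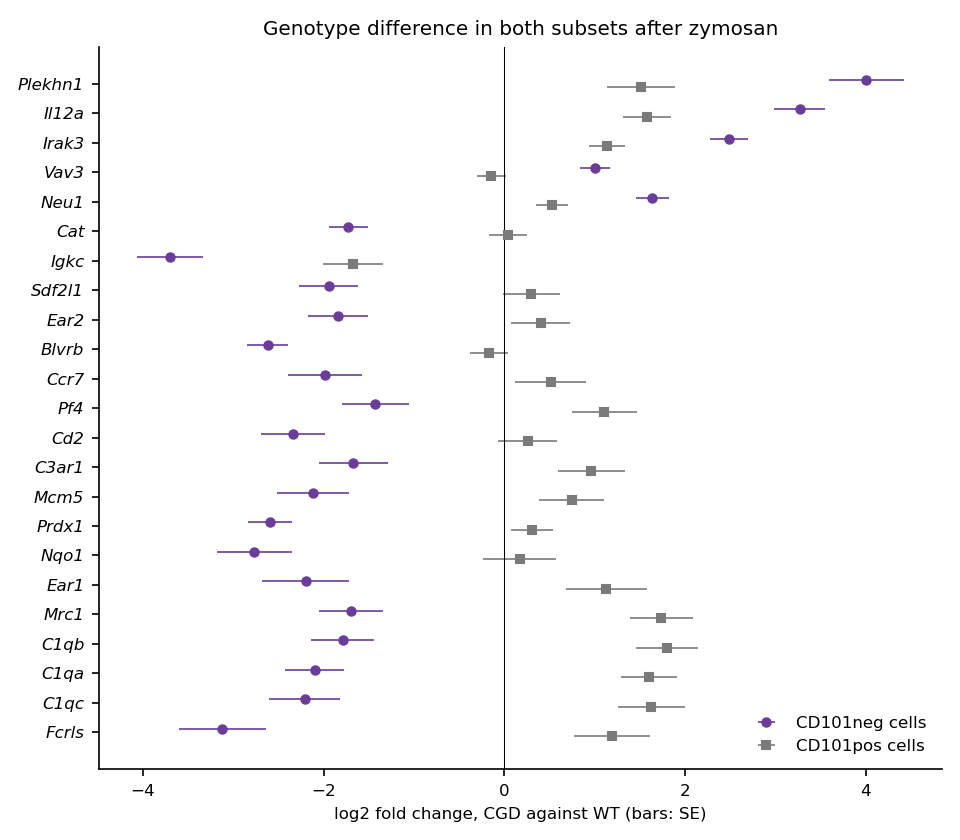
Log2 fold changes of CGD against WT (horizontal axis, bars show the SE) in CD101neg (circles) and CD101pos cells (squares) after zymosan, for the 23 named genes whose interaction passed. The C1q genes, Mrc1 and Fcrls lie on opposite sides of 0 in the 2 fractions, while Prdx1, Nqo1, Blvrb and Cat lie near 0 in CD101pos cells.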

How the data were processed

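RNA of sorted lung neutrophils was extracted with the RNeasy Plus Micro kit and made into libraries with the Clontech SMARTer kit, per the labels' protocols. The deposited values are raw counts per gene, made by the authors with STAR 2.5.1a and featureCounts 1.4.6-p5 of Subread, per the submitters' processing notes. Which build, annotation and strandedness they used is not given in the sources used here. Overlapping or near-identical genes (Tgtp1 and Tgtp2, Chil3, the Ear and Gbp genes) may therefore share reads. Of 40757 lines, 276 repeated a gene ID, which left 40481 genes.

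Genes were kept by filterByExpr (16575, of which 13807 protein-coding). All 18 libraries in 6 groups were fitted with edgeR 4.0.16 (R 4.3.3, limma 3.58.1; TMM factors, robust quasi-likelihood test, 12 residual degrees of freedom, biological coefficient of variation 33%), with Benjamini-Hochberg adjustment over all genes tested and a threshold of 0.05. Fits were tested on simulated data. Alternatives were DESeq2 1.42.0, RLE factors, library size only, no filter, only the libraries compared, a replicate block, and each library left out.

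Named genes were the 12 largest changes in each direction (at least 10 CPM in the higher group, no overlap between genotypes, no predicted models), up to 4 members per list by lowest p (2 where none passed), Cybb, Cd101 and the oxidase genes. Other genes were named after their values were seen. The comparison, lists and rule were chosen with earlier results of these data known. Another 5 genes of the lists were not analysed here, and some that the rule named are not reported here. Promoters came from RefSeq.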

Additional observations from a re-analysis of the deposited data

Results flagged for a closer look

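For 23 of the named genes the genotype difference itself differed between CD101neg and CD101pos cells by the edgeR interaction test with Benjamini-Hochberg adjustment, given here as the log2 difference between the fractions (CD101neg minus CD101pos). It was positive for Plekhn1 (2.49) and 4 other genes that rose in CD101neg cells, namely Il12a (1.69), Irak3 (1.35), Vav3 (1.14) and Neu1 (1.11). Among antioxidant genes it was -2.94 for Nqo1, -2.90 for Prdx1, -2.45 for Blvrb and -1.77 for Cat. Among markers of macrophages it was -4.31 for Fcrls, -3.83 for C1qc, -3.70 for C1qa, -3.59 for C1qb, -3.44 for Mrc1, -3.33 for Ear1 and -2.24 for Ear2. For genes of other leukocytes and platelets it was -2.63 for C3ar1, -2.59 for Cd2, -2.53 for the platelet gene Pf4, -2.50 for Ccr7 and -2.03 for Igkc. The replication gene Mcm5 had -2.86 and the chaperone Sdf2l1 -2.24. Over the whole lists the test passed for 5 of 31 antioxidant genes, 8 of 14 markers of monocytes and interstitial macrophages and 4 of 13 of alveolar macrophages, and the part of one in the other was not tested. Leaving out 1 of the 12 libraries at a time, 15 of the 23 missed the threshold at least once (adjusted p 0.0511 to 0.125), among them all 5 with a positive difference, and 14 missed it without CD101neg CGD replicate 2 and 14 without CD101pos WT replicate 3. Of the 23, 5 missed it with library size only and 11 with only the libraries compared. Over all genes tested, 30 positive differences passed in the main fit, 1 with library size only and 2 with only the libraries compared.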

How the results depend on the processing

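Against 2139 genes (1105 higher, 1034 lower), scaling by library size only gave 3985 (413 and 3572) and fitting only the libraries compared 1017 (625 and 392), with 4 residual degrees of freedom in place of 12. Leaving out 1 library gave 1177 to 1976 genes, 708 to 1054 higher and 469 to 922 lower. RLE factors gave 2139, DESeq2 2947 and no filter 2006. The main interaction count was 141 (30 and 111). It was 589 (198 and 391) with DESeq2, 327 (41 and 286) with no filter and 63 (2 and 61) with only the libraries compared. With library size only it was 164, of which 1 was higher and 163 lower. Leaving out 1 library gave 43 to 519 genes, 2 to 99 higher and 40 to 420 lower. The replicate block gave 2165 genes (1147 and 1018) and 182 interactions (31 and 151). It fitted an effect of each replicate number shared by all zymosan groups. Same-numbered CGD and WT libraries deviated with correlations of -0.177, -0.0657 and 0.0686, so the numbers were not taken as pairs. Of the 180 genes named by rule, 0 of those past the threshold changed direction under these alternatives. Those that lost their call numbered 26 with library size only, 46 with only the libraries compared, 12 with no filter, 4 with the block, 1 with RLE factors, 0 with DESeq2, and 17 to 40 when 1 library was left out. Counts were deep (51.9 to 64.0 M), so for abundant genes the 3 samples per group and not depth limit precision, whereas genes near 0 CPM carry few counts.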
